A study of Rattus norvegicus with 6 samples.

Results

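The regions described here are the accessible sites (ACS) whose nearest gene is a Hox gene or a member of the *Lhx*, *Tbx*, *Dlx*, *Emx*, *Msx*, *Meis* or *Pbx* families or of the sine oculis homologues such as *Six3* and *Six6*. They were taken by gene symbol alone, with no measured value. This gave 354 of the 101603 ACS of rat islets, at 43 of the 14776 genes that were the nearest gene of at least 1 ACS. The nearest gene is a label of position. No expression was measured in these libraries, and a site may act on another gene.

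Chromatin accessibility was measured by ATAC-seq, in which the Tn5 transposase inserts adapters into open chromatin, in dissociated islet cells of Sprague-Dawley rats. The adult group held 3 libraries, numbered 4, 5 and 6, each from 1 male about 3 months old. The P10 group held 3 libraries, numbered 1, 2 and 3, each from the pooled pups of 1 litter, males and females, at postnatal day 10. No animal was treated. P10 pancreases were shaken in collagenase, whereas in adults collagenase was injected into the pancreatic duct. Age, sex, the pooling of litters and the way of islet isolation therefore differ together between the groups and cannot be told apart. The cells were not sorted, so fewer cells of a type and less accessibility per cell cannot be told apart either.

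The homeodomain is a DNA-binding fold shared by a large group of developmental transcription factors. Hox proteins give cells their position along the body axis, and they bind DNA together with the Pbx and Meis proteins, homeodomain cofactors of a class named TALE. The other families act in patterning of organs: Lhx proteins carry LIM domains and work with the adaptor Ldb1, the sine oculis homologues pair with Eya coactivators, Msx genes respond to BMP signals, and Dlx and Emx proteins pattern the face, limbs and forebrain. Tbx genes encode the T-box, a different DNA-binding domain, so the 64 ACS at the 11 *Tbx* genes belong to developmental regulators but not to homeobox genes. In the pancreas, Pbx proteins are known partners of the islet homeodomain protein Pdx1.

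Integrations in all ACS summed to between 7916919 and 11903909 per adult library and to between 13491534 and 21168463 per P10 library. An ACS was called at an unadjusted p under 0.05 and a false discovery rate (FDR) under 0.2 in edgeR's quasi-likelihood test over all ACS. Up means more accessible in adults and Down more accessible in P10. Levels are counts per 1000000 integrations in ACS (CPM) after TMM scaling, and log2 fold changes are adult over P10. Marker genes of the cell types that islets can hold were read as the summed CPM of their ACS within 1 kb of the start. The beta cell list (5 of 7 genes with such an ACS, without *Slc2a2* and *Mafa*) gave 157 to 209 CPM in adults and 195 to 317 CPM in P10. The alpha cell list (4 of 4 genes) gave 66.9 to 86.7 CPM in adults and 74.0 to 87.0 CPM in P10. The delta and PP cell list (2 of 3, without *Ppy*) gave 11.6 to 13.7 CPM in adults and 17.6 to 25.6 CPM in P10. The duct list (3 of 5) gave 17.5 to 20.2 CPM in adults and 24.7 to 34.4 CPM in P10. The delta and PP list and the duct list were lower in adults without overlap, which held for no other list. Each of these sums came mostly from 1 gene. Means over all libraries were 13.7 CPM at *Hhex* and 3.19 CPM at *Sst*. In the duct list they were 15.1 CPM at *Cftr*, 6.95 CPM at *Sox9* and 3.03 CPM at *Krt19*. Of all ACS within 1 kb of a gene start, 7.87% were Down and 2.73% Up. Acinar cells (2 of 8 genes, 16.5 to 25.1 CPM against 21.1 to 26.7 CPM), mesenchyme (5 of 10, 17.8 to 25.1 against 23.3 to 27.6 CPM) and endothelium (2 of 8, 23.5 to 31.7 against 28.9 to 35.5 CPM) overlapped between adults and P10. So did Schwann and neural cells (1 of 6, 3.98 to 6.52 against 4.07 to 5.35 CPM) and proliferation (4 of 5, 85.1 to 91.5 against 81.1 to 98.0 CPM), while 0 of the 7 immune genes had an ACS at the start. The part of cell composition in the differences below was not tested.

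Accessibility at the starts of these genes was mostly below the median of gene starts. Of the 43 genes, 22 (51.2%) had an ACS within 1 kb of the start, against 66.4% of all genes with an ACS. Their median accessibility per length was 16.8 CPM per kb, against 26.0 CPM per kb over the 9795 genes with such a site, and 15 of the 22 lay below that median. The lowest level per length was 8.10 CPM per kb at *Hoxd1*. The TALE genes *Pbx4* (67.8 CPM per kb), *Meis1* (60.4) and *Meis2* (42.4) were well above the median of gene starts. *Pbx3*, of the same class, was near the bottom at 8.14 CPM per kb.

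The promoters of 4 of these genes are shown because their starts cover the range of behaviours: *Pbx4* and *Meis1* were high and not called, *Tbx20* was called Up and *Msx3* was called Down. Each is the 250 bases before the start in RefSeq on the GRCr8 build, 5′ to 3′ along the gene, and the capitals mark GC boxes (GGGCGG on either strand) and TATA boxes (TATAAA on either strand). The sites were measured on the Rn5 build, so the annotated start may differ between these windows and the ACS.
Pbx4: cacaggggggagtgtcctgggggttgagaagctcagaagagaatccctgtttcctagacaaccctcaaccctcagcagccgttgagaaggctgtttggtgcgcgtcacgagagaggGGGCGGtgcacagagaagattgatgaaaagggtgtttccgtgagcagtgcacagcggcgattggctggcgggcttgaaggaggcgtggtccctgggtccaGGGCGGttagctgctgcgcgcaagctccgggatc
Meis1: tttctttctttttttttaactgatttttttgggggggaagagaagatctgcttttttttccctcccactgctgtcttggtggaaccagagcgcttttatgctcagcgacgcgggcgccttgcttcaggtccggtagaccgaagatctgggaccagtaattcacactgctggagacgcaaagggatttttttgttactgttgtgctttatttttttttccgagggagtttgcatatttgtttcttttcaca
Tbx20: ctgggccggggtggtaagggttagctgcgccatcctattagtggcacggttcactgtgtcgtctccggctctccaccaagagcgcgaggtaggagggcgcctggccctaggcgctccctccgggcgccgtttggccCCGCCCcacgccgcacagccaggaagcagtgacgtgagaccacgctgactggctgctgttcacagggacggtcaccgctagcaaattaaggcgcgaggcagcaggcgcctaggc
Msx3: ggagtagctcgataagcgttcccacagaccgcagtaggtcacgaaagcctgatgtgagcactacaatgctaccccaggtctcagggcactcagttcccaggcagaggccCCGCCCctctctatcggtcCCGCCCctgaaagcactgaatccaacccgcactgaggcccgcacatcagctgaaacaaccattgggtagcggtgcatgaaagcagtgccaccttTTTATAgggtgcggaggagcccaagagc
The *Pbx4* window lies at chr16:19623922-19624171, the *Meis1* window at chr14:97495084-97495333, the *Tbx20* window at chr8:31534010-31534259 and the *Msx3* window at chr1:204271617-204271866, all on the minus strand. *Pbx4* and *Msx3* held 2 GC boxes each, *Tbx20* held 1 and *Meis1* none, although *Meis1* had more start accessibility per length than *Tbx20* or *Msx3*. A TATA box was found in *Msx3* alone among the 4. Of the 43 genes, 28 matched a RefSeq promoter. Motifs were counted in 1 window per gene, the first listed, and 3 of the 28 genes had more than 1 window. The GC box was in 16 of the 28, against 32.4% of 27457 promoters, and in 18 when any window of a gene was counted. The TATA box was in 3 of the 28, against 13.1% of promoters. Motifs of the families themselves were searched on both strands too. The MEIS core TGACAG was found in 6 of the 28 member promoters and in 15.6% of all promoters, the homeodomain core TAATTA in 1 and in 4.94%, the PBX-HOX composite TGATTNAT in 0 and in 2.81%, and the T-box site AGGTGTGA in 0 and in 0.958%.

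**Figure D1:**
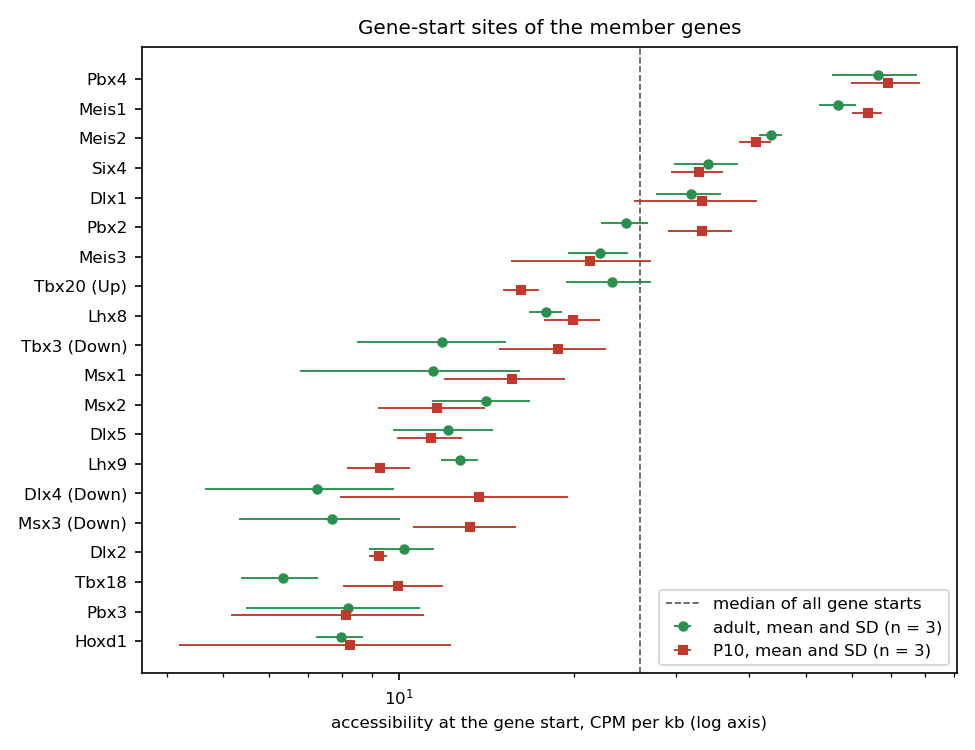
Accessibility at the start of 20 genes with an ACS within 1 kb of it, in CPM per kb on a log axis. Points are group means and bars the SD over 3 libraries, and the dashed line is the median of all gene starts (26.0 CPM per kb). *Pbx4*, *Meis1* and *Meis2* lie at the top, and the called starts (*Tbx20*, *Tbx3*, *Dlx4*, *Msx3*) lie below the line.

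Between the ages, 4 of the 22 starts were called. Over all ACS of this class 2.73% were Up and 7.87% Down. *Tbx20*, a regulator of heart development, had 13.8, 15.2 and 10.8 CPM in adults and 8.55, 9.84 and 9.52 CPM in P10 at chr8:25934551-25935122, without overlap between the ages. The log2 fold change was 0.52 ± 0.22 (SE, n = 3 and 3; edgeR FDR 0.164). The call depended on most of the libraries: it held without adult 6, and the FDR was 0.271 to 0.341 when any other library was left out. It was also lost with column sums (FDR 0.245), with cyclic loess scaling (0.335) and under the limit of a mean of 50 counts.

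The 3 starts called Down were those of *Msx3*, *Tbx3* and *Dlx4*. *Msx3*, the *Msx* gene of the dorsal neural tube, had 3.43, 3.60 and 1.93 CPM in adults against 5.39, 6.06 and 4.02 CPM in P10 at chr1:219431344-219431732 (log2 fold change -0.76 ± 0.31 SE, edgeR FDR 0.143). The groups did not overlap, but the call was lost without adult 6 (FDR 0.412), P10 1 (0.217) or P10 2 (0.403). *Tbx3*, which acts in limb, heart and mammary development, had 8.40, 6.04 and 4.77 CPM in adults against 8.51, 12.5 and 9.30 CPM in P10 at chr12:44340729-44341266 (log2 fold change -0.64 ± 0.26 SE, edgeR FDR 0.137). Its call was lost without adult 5 (FDR 0.250), adult 6 (0.388) or P10 2 (0.474). *Dlx4*, whose protein belongs to the Distal-less family, was low in all libraries at 0.904, 1.95 and 1.55 CPM in adults and 1.63, 3.99 and 2.75 CPM in P10 (log2 fold change -0.91 ± 0.41 SE, edgeR FDR 0.190). Its groups overlapped, and the call was lost with limma voom (FDR 0.282), DESeq2 (0.229) and cyclic loess scaling (0.271), and without adult 4 (0.466), adult 6 (0.260), P10 2 (0.614) or P10 3 (0.329). The other 18 starts had log2 fold changes of -0.65 to 0.46, and none was called.

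Across all distances the ACS of these genes changed in both directions. There were 33 Up (9.32%, against 12.3% of all ACS) and 37 Down (10.5%, against 6.63% of all ACS). The number called in either direction was 70 (19.8%), against 18.9% of all ACS. The median log2 fold change was -0.08, against -0.01 over all ACS. The 3 adult libraries were all above the 3 P10 libraries in 40 of the 354 members, whereas this held for 13.8% of all ACS. They were all below in 56 of the 354 members, whereas this held for 10.9% of all ACS. Of the 70 called ACS, 61 (87.1%) had groups that did not overlap, against 83.9% of all called ACS. The balance depended on the scaling. Library sizes without TMM factors gave 24 Up and 47 Down (6.78% and 13.3%, against 10.3% and 10.6% of all ACS). The Up share of the member calls was then 33.8% in place of 47.1%. The calls over all ACS shifted towards Down as well, and the median of all ACS moved to -0.10. The balance of the members also depended on single libraries. It shifted most without adult 5, to 32 Up and 49 Down (9.04% and 13.8%, against 13% and 7.1% of all ACS). Leaving out adult 6 moved it the other way, to 33 Up and 26 Down (9.32% and 7.34%, against 10.7% and 4.96%). Without P10 2 there were 20 Up and 18 Down (5.65% and 5.08%, against 7.85% and 3.23% of all ACS). Without P10 3 there were 24 Up and 23 Down (6.78% and 6.5%, against 8.77% and 4.17% of all ACS). Of the members, 27 ACS were called whichever library was left out. Of these 16 were Up (4.52% of the members, against 6.32% of all ACS) and 11 were Down (3.11%, against 1.82%).

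The Up sites were more accessible than the Down sites. The median level was 9.89 CPM in the 33 Up ACS and 2.90 CPM in the 37 Down ACS, and over all ACS these medians were 8.26 and 3.80 CPM. Log2 fold changes ran from 0.42 to 1.72 in the Up ACS and from -0.55 to -3.48 in the Down ACS. Most members lay far from gene starts: 294 (83.1%, against 79.3% of all ACS) were distal, over 10 kb from the start, and 47 of these lay inside a gene. Another 34 were proximal and 26 lay within 1 kb of the start. Measured to the nearer end of the gene, 122 of the members (34.5%, against 34.6% of all ACS) lay over 100 kb away. The distal ACS held 30 of the 33 Up calls and 32 of the 37 Down calls (10.2% and 10.9%, against 13.8% and 6.45% of all distal ACS). The proximal ACS, between 1 and 10 kb from the start, held 2 Up and 2 Down (5.88% each, against 11.2% and 6.71%). The ACS of the 43 genes took 0.214, 0.217 and 0.209% of all integrations in the adult libraries and 0.214, 0.219 and 0.218% in the P10 libraries, so the groups overlapped in the total while single sites moved in both directions.

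**Figure D2:**
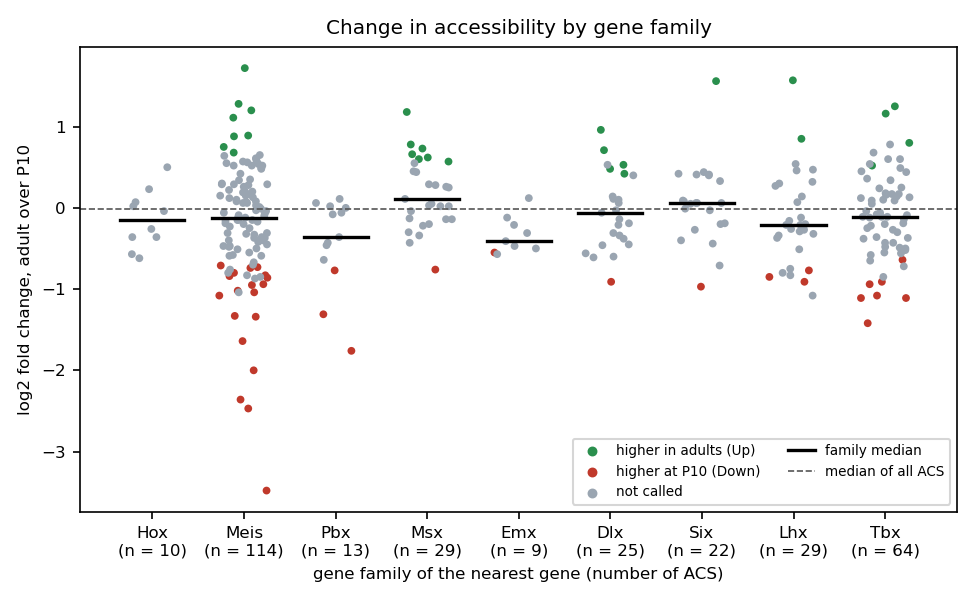
Log2 fold change, adult over P10, of each of 315 ACS by the family of the nearest gene, with the number of ACS under each name. Green points are Up, red points Down and grey points not called. Black bars are family medians, from -0.41 (Emx) to 0.11 (Msx), and the dashed line is the median of all ACS (-0.01).

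The Hox genes had few sites and no change that passed the test. There were 10 ACS at 5 genes: 4 at *Hoxb13*, 3 at *Hoxd13* and 1 each at *Hoxc8*, *Hoxd1* and *Hoxd4*. No ACS analysed here had a *Hoxa* gene as its nearest gene. Their levels ran from 1.87 to 7.82 CPM with a median of 3.72 CPM, against a median of 4.70 CPM over all ACS. None of the 10 was called, against 18.9% of all ACS. None had an unadjusted p under 0.05 in edgeR, against 21.1% of all ACS. Both limma voom and DESeq2 called 0 as well. Whether 0 of 10 differs from these shares was not tested. Column sums, cyclic loess scaling and the limit of a mean of 50 counts each gave 1 Down, and leaving out adult 5 gave 2 Down.

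*Hoxb13*, a gene of the posterior trunk and prostate, carried the most accessible of them at chr10:83773888-83774369, 60728 bp upstream of the start. It had 10.5, 6.72 and 6.32 CPM in adults and 9.39, 8.70 and 5.29 CPM in P10 (log2 fold change 0.02 ± 0.27 SE, edgeR FDR 0.982). The libraries of both ages were intermixed. The ACS inside *Hoxd4*, at chr3:68103577-68103828, had 4.25, 4.19 and 4.38 CPM in adults and 3.77, 4.21 and 3.01 CPM in P10 (0.23 ± 0.30, FDR 0.740). The ACS at the start of *Hoxd1*, at chr3:68150923-68151377, had 3.34, 3.51 and 4 CPM in adults and 1.67, 5.21 and 4.39 CPM in P10 (-0.04 ± 0.36, FDR 0.969). *Hoxc8*, a thoracic Hox gene, had 1.81, 3.02 and 1.42 CPM in adults and 2.46, 2.78 and 2.91 CPM in P10, 8425 bp downstream of its start (-0.36 ± 0.36, FDR 0.635). The 1 Hox site whose groups did not overlap lay 11998 bp upstream of *Hoxd13*, a gene of the digits, and was named after its values were seen. It had 1.99, 2.14 and 1.29 CPM in adults and 2.79, 2.64 and 3.01 CPM in P10 (-0.62 ± 0.36, FDR 0.338). Standard errors of 0.27 to 0.49 on the log2 scale over these 10 sites limit what could be detected at this depth.

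**Figure D3:**
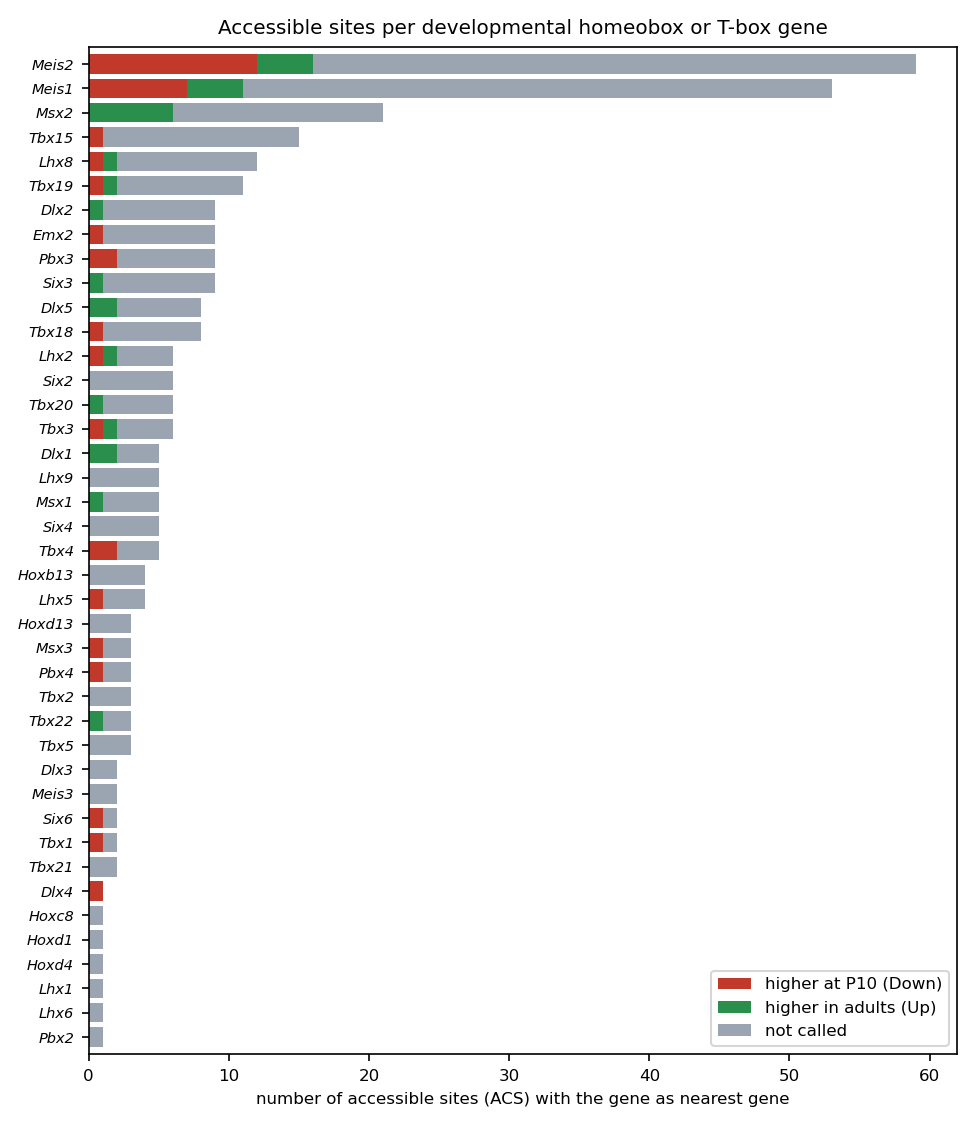
Number of ACS with each of 41 genes as nearest gene, split into Down (red), Up (green) and not called (grey). *Meis2* (59), *Meis1* (53) and *Msx2* (21) hold the most, and the Hox genes (1 to 4 each) are all grey.

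The cofactors of the Hox proteins had many more sites. *Meis1* and *Meis2* together held 112 of the 354 ACS (31.6%), and by number of ACS *Meis2* was 84th and *Meis1* 103rd of the 14776 genes. The median was 5 ACS per gene over the 43 genes and 3 over all genes. The *Meis* family had 8 Up and 19 Down among 114 ACS (7.02% and 16.7%, against 12.3% and 6.63% of all ACS). Its median log2 fold change was -0.13. The 240 ACS of the other families had 25 Up and 18 Down (10.4% and 7.5%). With all libraries and TMM factors, the excess of Down over Up calls therefore lay at the *Meis* genes. This depended on the fit. Without adult 5 the *Meis* genes held 10 of the 32 Up and 19 of the 49 Down. With column sums they held 8 of the 24 Up and 23 of the 47 Down. In both fits the other families also had more Down than Up. *Meis2* lies on chromosome 3, where 13.8% of all ACS were Down and 7.99% Up and the median log2 fold change of all ACS was -0.17. The 94 members on that chromosome had a median of -0.16 and the others -0.04.

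*Meis1*, known for its part in blood stem cells and leukaemia, had 4 Up and 7 Down among 53 ACS that spanned 919202 bp. The strongest call lay 220100 bp upstream of its start at chr14:103284068-103284575, with 34.1, 24.1 and 28.9 CPM in adults against 13.4, 9.34 and 13 CPM in P10. The groups were far apart, with a log2 fold change of 1.28 ± 0.20 (SE, edgeR FDR 1.24e-04). Inside the gene, 29473 bp from the start at chr14:103034495-103034924, the values were 10.9, 5.16 and 10.1 CPM in adults and 2.79, 2.07 and 3.01 CPM in P10. This was the largest rise of the 354 ACS, a log2 fold change of 1.72 ± 0.31 (SE, edgeR FDR 4.03e-04), again without overlap. In the opposite direction, the ACS 319117 bp upstream at chr14:103383085-103383449 had 0.271, 0.876 and 0.902 CPM in adults against 2.46, 4.07 and 3.86 CPM in P10. The groups were apart here too, with a log2 fold change of -2.36 ± 0.45 (SE, edgeR FDR 7.67e-04). These 3 calls held whichever library was left out.

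Accessibility of *Meis1* thus did not move as a block. Of the 10 pairs of neighbouring called ACS along the locus, 6 had opposite directions. The closest such pair, singled out after its values were seen, was 428 bp apart. In it, chr14:102598532-102598879 had 0.0904, 0.974 and 1.16 CPM in adults and 2.09, 1.43 and 3.07 CPM in P10 (-1.64 ± 0.52, edgeR FDR 0.0446). Its neighbour chr14:102599307-102599625 had 4.97, 6.23 and 6.06 CPM in adults and 2.32, 2.43 and 2.75 CPM in P10 (1.20 ± 0.30, edgeR FDR 8.89e-03). Neither overlapped between the ages. The Down call was lost without adult 4 (FDR 0.217) or P10 3 (0.243), and the Up call held whichever library was left out. The lowest fold change of all members, also singled out afterwards, belonged to a sparse ACS 326784 bp downstream of the start with 2 adult and 46 P10 integrations in all, a ratio of 0.0814 of adult to P10 after scaling to depth (95% counting interval 0.00957 to 0.311). Summed over its 53 ACS, *Meis1* had 278 to 308 CPM in adults and 248 to 292 CPM in P10, which overlapped (log2 fold change 0.13 ± 0.12 SE, edgeR FDR 0.578).

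*Meis2*, a regulator of limb, brain and pancreatic gene expression, had 4 Up and 12 Down among 59 ACS that spanned 1208791 bp. Its most accessible ACS, at chr3:113814764-113815394 and 510160 bp downstream of the start, was Up. It had 49.5, 32.4 and 42.8 CPM in adults against 29.6, 22.2 and 25.9 CPM in P10. The groups were apart, with a log2 fold change of 0.68 ± 0.18 (SE, edgeR FDR 0.0157), and the call held whichever library was left out. The 12 Down ACS had log2 fold changes of -0.71 to -2.00 and a median level of 3.09 CPM, and the 4 Up ACS 0.68 to 0.89 and a median level of 8.20 CPM. Only 1 of the 4 Up and 4 of the 12 Down were called whichever library was left out. Over all calls of the main fit, those of opposite direction were neighbours in 7 of 15 pairs. The sum over the locus was 313 to 365 CPM in adults and 349 to 397 CPM in P10, with overlap (log2 fold change -0.09 ± 0.13 SE, edgeR FDR 0.711). *Meis3* had 2 ACS, neither called.

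**Figure D4:**
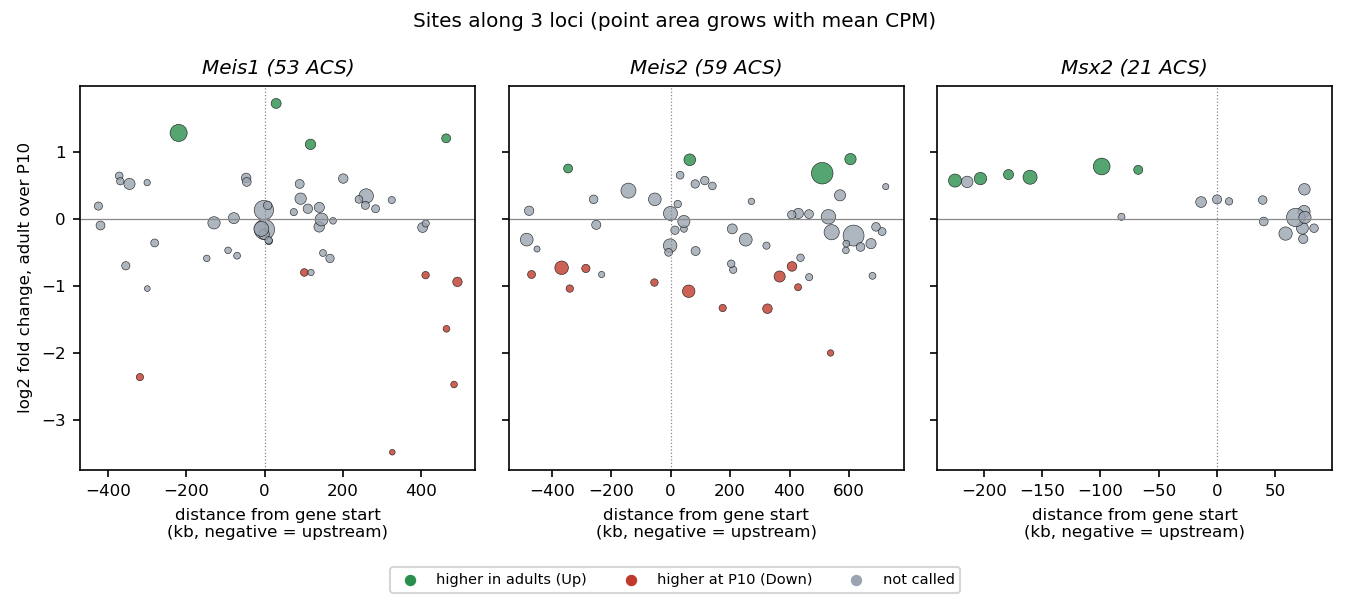
Log2 fold change of each ACS against its distance from the gene start in kb, negative for upstream, at *Meis1*, *Meis2* and *Msx2*. Green is Up, red Down and grey not called, and the area of a point grows with its mean CPM. Both colours occur along *Meis1* and *Meis2*, whereas *Msx2* has 6 Up, all upstream of the start. Of these 6, 1 was called whichever library was left out.

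Among the other TALE genes, *Pbx3* had 2 Down among 9 ACS, while 6.63% of all ACS were Down. The stronger lay 218830 bp downstream of its start at chr3:18544557-18544769, with 0.361, 0.779 and 0.516 CPM in adults and 1.77, 2.64 and 1.32 CPM in P10 (-1.76 ± 0.49, edgeR FDR 0.0189). This low site was apart in all libraries. *Pbx4* had 1 Down among 3 ACS. Its start was the most accessible ACS of the family, with 57.5, 48.2 and 41.2 CPM in adults and 59.0, 47.4 and 46.7 CPM in P10 (-0.06 ± 0.17, FDR 0.897). *Pbx2* had 1 ACS, not called.

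The *Msx* genes are targets of BMP signalling that hold cells in an undifferentiated state in several tissues. They had 7 Up and 1 Down among 29 ACS (24.1% and 3.45%, against 12.3% and 6.63% of all ACS). Their family median, 0.11, was the highest. *Msx2* held 21 of the 29 ACS, with 6 Up and 0 Down. All 6 were among the 9 ACS upstream of the start, from 67453 to 224610 bp away, and the 11 downstream ACS had 0 calls. Only 1 of the 6 was called whichever library was left out. The most certain lay 98795 bp upstream at chr17:13686229-13686634, with 30.9, 22.0 and 21.3 CPM in adults and 15.2, 13.9 and 14.1 CPM in P10. It was apart in all libraries, with a log2 fold change of 0.78 ± 0.20 (SE, edgeR FDR 0.0112), and held whichever library was left out. The next, at chr17:13624786-13625304, had 20, 15.5 and 12.6 CPM in adults and 13.2, 10.4 and 7.61 CPM in P10 (0.62 ± 0.24, edgeR FDR 0.105). Its groups overlapped, and the call was lost without adult 4 (FDR 0.384), P10 2 (0.267) or P10 3 (0.416). The most accessible downstream ACS, at chr17:13852674-13853433, had 15.1, 34.4 and 23.7 CPM in adults and 20, 26.2 and 26.0 CPM in P10 (0.02 ± 0.22, FDR 0.975), with the adults spread around P10. The 99 ACS of other genes within 1 Mb of *Msx2* were Up in 15.2% and Down in 1.01%, with a median log2 fold change of 0.11, so its surroundings leaned the same way.

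*Msx1* had 1 Up among 5 ACS, 12693 bp upstream of its start at chr14:77678297-77678689. It had 24.6, 18.8 and 17.5 CPM in adults against 9.76, 7.42 and 9.67 CPM in P10. The lowest adult library was well above the highest P10 library, with a log2 fold change of 1.18 ± 0.22 (SE, edgeR FDR 6.00e-04), and the call held whichever library was left out. Its sum of 38.6, 40.3 and 33.4 CPM in adults and 28.1, 27.8 and 27.6 CPM in P10 was called Up (0.43 ± 0.14, edgeR FDR 0.0767). That call was lost without adult 4 (FDR 0.213) or P10 2 (0.258). The sum of *Msx2* was also Up, at 183, 215 and 175 CPM in adults and 150, 166 and 155 CPM in P10 (0.28 ± 0.12, edgeR FDR 0.169), but it held only without adult 6, and the FDR was 0.244 to 0.368 when any other library was left out. *Emx2*, a gene of the cerebral cortex and urogenital tract, fell in its sum over 9 ACS. It had 39.2, 45.8 and 44.4 CPM in adults and 48.4, 57.2 and 63.6 CPM in P10, without overlap (-0.39 ± 0.13, edgeR FDR 0.0904). That call was lost without adult 4 (FDR 0.290), P10 2 (0.292) or P10 3 (0.251).

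**Figure D5:**
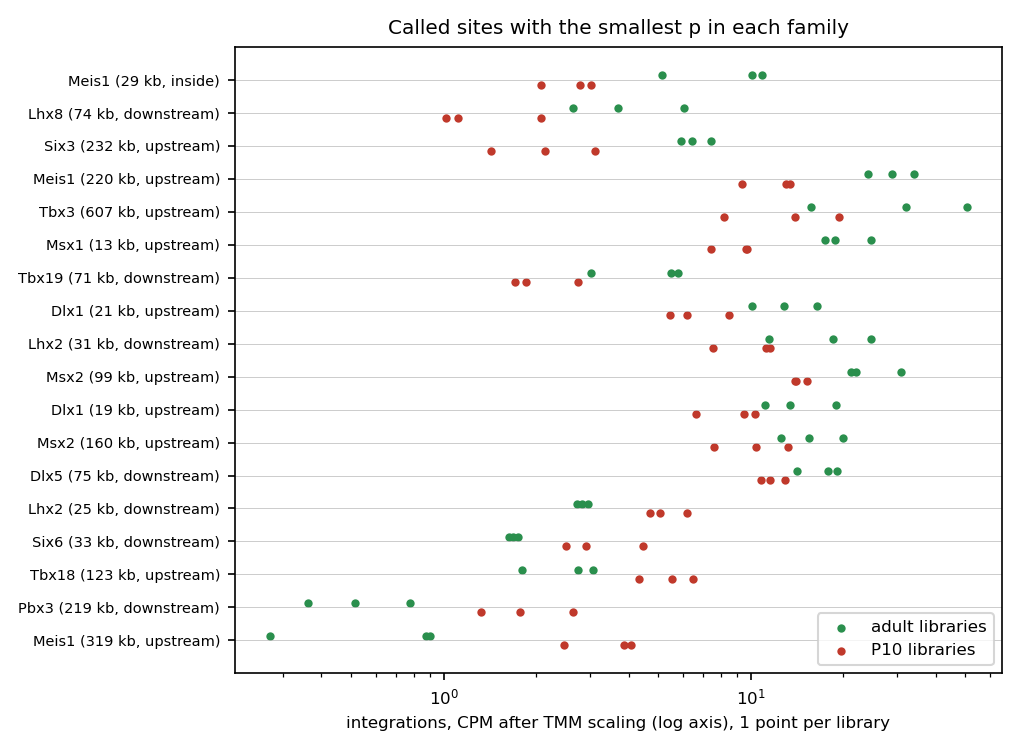
CPM per library (log axis) at 18 of the called ACS with the smallest p in each family, ordered by fold change, with the distance to the start of the nearest gene and the position of the ACS relative to that gene. Green points are the 3 adult libraries and red points the 3 P10 libraries. In 15 of the 18 ACS the colours do not overlap, and the largest rise is at *Meis1* (10.9, 5.16 and 10.1 CPM against 2.79, 2.07 and 3.01 CPM).

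The *Dlx* genes, Distal-less homologues that act in the face, limbs and inhibitory neurons, had 5 Up and 1 Down among 25 ACS. These were 20% and 4% of the family, against 12.3% and 6.63% of all ACS. Without adult 4 or without P10 2 the family had 1 Up, when 9.56% and 7.85% of all ACS were Up. The 43 ACS of other genes within 1 Mb of *Dlx5* were Up in 23.3% and Down in 6.98%. Around *Dlx1* the 67 such ACS were Up in 16.4% and Down in 8.96%. Around *Dlx4*, which held the Down call, the 95 such ACS were Up in 3.16% and Down in 13.7%. *Dlx1* held 2 Up, 18856 and 20729 bp upstream of its start. The stronger, at chr3:64629563-64629894, had 16.4, 12.8 and 10.1 CPM in adults and 8.51, 6.21 and 5.45 CPM in P10 (0.96 ± 0.25, edgeR FDR 0.0126). It was apart in all libraries and held whichever was left out. The other, at chr3:64631436-64631832, had 18.9, 11.1 and 13.4 CPM in adults and 9.53, 6.63 and 10.3 CPM in P10 (0.71 ± 0.24, edgeR FDR 0.0642), and was lost without adult 4 (FDR 0.348) or P10 2 (0.343). The sum of *Dlx1* was Up with 55.2, 39.6 and 44.5 CPM in adults against 35.8, 35.3 and 37.5 CPM in P10 (0.36 ± 0.14, edgeR FDR 0.131), and was lost without adult 4 (FDR 0.499), adult 6 (0.207) or P10 2 (0.368). At *Dlx5*, the ACS 75005 bp downstream of the start at chr4:32184584-32185196 had 19.1, 14.2 and 17.8 CPM in adults and 11.6, 10.8 and 12.9 CPM in P10. The groups were apart (0.53 ± 0.21, edgeR FDR 0.126), but the call was lost without adult 4 (FDR 0.323), adult 6 (0.253) or P10 2 (0.393). The family's most accessible ACS, at chr4:32140851-32141421 and also nearest to *Dlx5*, had 28.0, 22.9 and 26.9 CPM in adults and 18.4, 21.6 and 18.3 CPM in P10 (0.42 ± 0.18, edgeR FDR 0.181), and its call held only without adult 5, with an FDR of 0.277 to 0.398 when any other library was left out.

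Among the sine oculis homologues, *Six3* had 1 Up among 9 ACS and *Six6* had 1 Down among 2. Of all ACS, 12.3% were Up and 6.63% Down. *Six3*, a gene of the eye and forebrain, rose at chr6:8579523-8579793, 232376 bp upstream of its start. The adults had 7.41, 5.94 and 6.45 CPM and P10 3.11, 2.14 and 1.43 CPM, without overlap. The log2 fold change was 1.56 ± 0.32 (SE, edgeR FDR 1.53e-03), and the call held whichever library was left out. The most accessible ACS of this family, also at *Six3* (chr6:8836226-8836785), had 31.3, 27.4 and 29.0 CPM in adults and 34.2, 23.3 and 25.4 CPM in P10 (0.08 ± 0.18, FDR 0.869), with the ages intermixed. *Six6*, a gene of the eye and pituitary, fell at chr6:105286942-105287279 from 4.46, 2.50 and 2.91 CPM in P10 to 1.63, 1.75 and 1.68 CPM in adults (-0.97 ± 0.36, edgeR FDR 0.0966). That call was lost without P10 1 (FDR 0.343), the highest P10 library.

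The *Lhx* genes had 2 Up and 3 Down among 29 ACS (6.9% and 10.3%, against 12.3% and 6.63% of all ACS). *Lhx8*, a gene of cholinergic neurons, rose 73737 bp downstream of its start at chr2:279184516-279184717. It had 3.70, 2.63 and 6.06 CPM in adults and 1.02, 2.07 and 1.11 CPM in P10 (1.57 ± 0.39, edgeR FDR 8.90e-03), apart in all libraries and held whichever was left out. The family's most accessible ACS, at chr2:279234910-279235695, was at the same gene and had 32.4, 25.4 and 30.2 CPM in adults and 22.4, 21.8 and 27.1 CPM in P10 (0.30 ± 0.18, FDR 0.360). *Lhx2*, which acts in the eye, forebrain and hair follicle, had 2 called ACS of opposite direction, 24554 and 31193 bp downstream of its start. The nearer, at chr3:27894581-27894932, had 2.71, 2.82 and 2.96 CPM in adults and 4.69, 5.06 and 6.19 CPM in P10 (-0.91 ± 0.30, edgeR FDR 0.0537), and was lost without P10 3 (FDR 0.210). The farther, at chr3:27901220-27901604, had 24.6, 18.6 and 11.5 CPM in adults and 11.6, 7.56 and 11.2 CPM in P10 (0.85 ± 0.25, edgeR FDR 0.0261). Its groups overlapped, and it was lost without adult 4 (FDR 0.219).

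*Lhx5*, a gene of the forebrain and cerebellum, was the 1 gene whose sum was called whichever library was left out. Over 4 ACS it had 8.45, 10.8 and 6.42 CPM in adults and 19.4, 13.2 and 13.1 CPM in P10. The highest adult library was below the lowest P10 library, with a log2 fold change of -0.83 ± 0.23 (SE, edgeR FDR 0.0448). Over the 43 genes, 5 sums were Up and 3 Down, against 10.5% Up and 7.63% Down over all genes. Without adult 4 or without P10 2, 0 sums were Up and 1 was Down. Without adult 5 there were 3 Up and 7 Down, without P10 3 there were 3 Up, and without P10 1 there were 5 Down.

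The T-box genes had 4 Up and 7 Down among 64 ACS (6.25% and 10.9%, against 12.3% and 6.63% of all ACS). At *Tbx3*, an ACS 607134 bp upstream of the start, chr12:44946872-44947429, had 50.7, 32.1 and 15.7 CPM in adults and 19.4, 8.20 and 13.9 CPM in P10. The lowest adult library was below the highest P10 library, yet the log2 fold change of 1.25 ± 0.29 (SE, edgeR FDR 5.10e-03) was called whichever library was left out. This site and the *Tbx3* start therefore had calls of opposite direction. The sum of *Tbx3* followed the distant site, with 64.4, 52.3 and 26.7 CPM in adults and 33.4, 30.0 and 33.5 CPM in P10 (0.58 ± 0.20, edgeR FDR 0.105), and the adults overlapped P10. It was lost without adult 4 (log2 fold change 0.30, FDR 0.453), adult 5 (FDR 0.228) or P10 2 (0.277).

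*Tbx19*, which drives the pituitary corticotroph lineage, also had 1 Up and 1 Down. The Up ACS at chr13:88234485-88234755 had 5.51, 3.02 and 5.80 CPM in adults and 2.74, 1.71 and 1.85 CPM in P10 (1.16 ± 0.34, edgeR FDR 0.0277), apart and held whichever library was left out. The most accessible T-box ACS, 4053 bp upstream of the *Tbx19* start at chr13:88309414-88310029, had 43.9, 35.3 and 36.6 CPM in adults and 33.5, 35.9 and 34.3 CPM in P10 (0.16 ± 0.16, FDR 0.650). *Tbx18*, a gene of the epicardium and of smooth muscle precursors, fell 122902 bp upstream of its start at chr8:95011027-95011349, from 4.32, 6.49 and 5.55 CPM in P10 to 3.07, 2.73 and 1.80 CPM in adults. It was apart in all libraries and held whichever was left out (-1.08 ± 0.31, edgeR FDR 0.0279). Its sum fell too, with 17.9, 23.9 and 17.8 CPM in adults and 25.0, 31.0 and 31.0 CPM in P10 (-0.54 ± 0.17, edgeR FDR 0.0672), and was lost without adult 4 (FDR 0.214), adult 6 (0.205) or P10 2 (0.266).

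By gene, 26 of the 43 (60.5%) had at least 1 called ACS and 17 had none. Over all 14776 genes, 48.9% had a called ACS: 20.7% had Up calls alone, 13.8% had Down calls alone and 14.4% had both. The genes described here had a median of 5 ACS each, against 3 over all genes. The called ACS were all Up at 8 genes and all Down at 11, and 7 genes had both, among them *Meis1* (4 Up, 7 Down), *Meis2* (4 and 12), and *Lhx2*, *Lhx8*, *Tbx3* and *Tbx19* (1 and 1 each). The last member called had an FDR of 0.193, at *Meis1*, and the first one not called 0.203, at *Msx2*.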

How the data were processed

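ATAC-seq libraries of islet cells from 3 adult rats and 3 litters at postnatal day 10 were analysed. The authors cut open chromatin with Tn5 and sequenced paired ends. The submitters' processing notes name FastQC 0.11.2, BWA 0.7.13, SAMtools 1.3 and MACS2 2.1.1. Reads were aligned to Rn5, reads of low mapping quality and mitochondrial reads were removed, peaks were called on the joined libraries of each age, and pyDNase gave the deposited counts, the number of integrations in each ACS of each library. Removal of PCR duplicates is not given in the sources used here, so counting intervals cover counting error only. Coordinates of ACS are those of Rn5. The deposited table also holds the authors' own test as a log2 fold change, a mean log2 CPM, an F score, a p-value and an FDR, and none of these was used. The nearest gene, its position and the class of each ACS were taken from the table as deposited.

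The table held 101941 entries, of which 338 repeated an ACS, and each of the 101603 ACS entered once. Entries with a blank gene symbol (6899) could not be members. Tests used edgeR 4.0.16 in R 4.3.3 with TMM factors (0.930 to 1.045), the quasi-likelihood test with age as the term, and Benjamini-Hochberg adjustment over all ACS, or over 14776 genes for counts summed by nearest gene. The test was tried on simulated counts. Standard errors were derived from the log2 coefficient and its F value. Called ACS named with values were the 3 with the smallest p in each family, gene-start ACS, the most accessible ACS of each family, genes with 3 or more calls and genes called on their sum. Alternatives were limma 3.58.1 (voom, or cyclic loess with a prior count of 2), DESeq2 1.42.0, other library sizes, filters on low counts, a stricter FDR and leaving out each library. The genes, marker lists, partner list and tests were chosen with earlier results of these data known. Promoters came from RefSeq on GRCr8, matched by gene ID. No genome of the Rn5 build was used here, so no sequence of an ACS is shown. Some genes of these families are counted in the totals but are not reported here.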

Additional observations from a re-analysis of the deposited data

How the results depend on the processing

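Of the 724 values that ACS and genes named in the text took under alternatives, 647 stayed called in the same direction or stayed uncalled. Another 70 lost the call, 7 gained one and 0 calls reversed direction. Some of the uncalled values among the 647 changed sign. At an FDR under 0.05 there were 19 Up and 15 Down, with no share of all ACS given at that limit. A minimum mean of 50 counts left 195 ACS with 25 Up and 24 Down (12.8% and 12.3%, against 15.4% and 11.8% of all ACS kept). Leaving out 1 library gave 20 to 35 Up (5.65% to 9.89%, against 7.85% to 13% of all ACS). It gave 18 to 49 Down (5.08% to 13.8%, against 3.23% to 7.1% of all ACS). The lowest numbers were without P10 2, and 23 were Down without P10 3. The other tests and scalings gave 24 to 33 Up and 31 to 47 Down, with all of the 354 ACS or 350 of them tested. Of all ACS tested they called 10.3% to 12.5% Up and 5.73% to 10.6% Down. The median log2 fold change of the members was -0.18 with column sums and stayed between -0.11 and -0.05 when a library was left out. Gene sums were the least stable result: column sums gave 2 Up and 8 Down, sums without ACS at the start gave 3 Up and 6 Down, and leaving out 1 library gave 0 to 5 Up and 1 to 7 Down. The difference in the share of all integrations held by the members (adult minus P10, -0.00386 percentage points) was given without a test. The cause of these shifts was not tested. Leaving out a library also leaves fewer samples for the test.

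No paired analysis was possible because adult and P10 libraries share no replicate number. P10 libraries were deeper than adult libraries. An ACS not called is not shown to be alike at both ages. Distance to the nearest gene does not show which gene a site acts on.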

Other observations

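Genes that work with these families were read from a list of 31 cofactors and related homeobox genes. Of these, 22 had ACS, 222 in all, with 35 Up (15.8%, against 12.3% of all ACS) and 17 Down (7.66%, against 6.63%). The list's median log2 fold change was -0.04, against -0.01 over all ACS. The strongest call was inside *Ldb2*, an adaptor of LIM homeodomain proteins, at chr14:71130752-71131054. It had 21, 19.3 and 25.5 CPM in adults and 4.97, 5.78 and 5.45 CPM in P10, without overlap (log2 fold change 2.02 ± 0.22 SE, edgeR FDR 9.43e-07). *Lmo1*, which encodes a LIM-only protein, rose inside the gene at chr1:180724863-180725116 from 5.11, 2.28 and 4.86 CPM in P10 to 19.1, 14.5 and 10.6 CPM in adults (1.83 ± 0.28, edgeR FDR 8.08e-05). *Eya4*, of the coactivators of sine oculis homologues, rose 77414 bp upstream of its start from 9.76, 8.70 and 9.94 CPM in P10 to 20.4, 22.7 and 27.8 CPM in adults (1.31 ± 0.21, edgeR FDR 9.77e-05). In all 3 ACS every adult value exceeded every P10 value.

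*Lhx4*, a LIM homeobox gene of the pituitary, had 4 ACS that were not members because the table leaves their gene symbol blank, and they were matched by gene ID. The most accessible, inside the gene at chr13:78282247-78283237, had 16.1, 15.3 and 15.9 CPM in adults and 18.5, 17.8 and 14 CPM in P10 (log2 fold change -0.09 ± 0.20 SE, edgeR FDR 0.861). The 4 log2 fold changes ran from -0.61 to 0.37, and none was called.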
